A study of Mus musculus with 4 samples.

Results

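The genes described here are 46 components of transforming growth factor beta (TGF-beta) and bone morphogenetic protein (BMP) signalling, chosen by symbol from 23420 genes counted in mouse heart: ligands, receptors, SMAD proteins, latent binding proteins, antagonists and ID genes. All 46 had a row in the files and a match in the gene annotation. Polyadenylated RNA was sequenced in 4 libraries of a single group of unmanipulated wild-type C57BL/6J mice, labelled male and 12 weeks of age. No treated, mutant or younger group exists, so genes are compared with each other in 1 heart sample, and samples with each other. The tissue label names the whole heart, while the protocol in the labels states that the frozen piece was the tip of the ventricles.

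Ligands of the TGF-beta superfamily bind pairs of type I and type II receptor kinases. The activated type I receptor phosphorylates receptor SMADs, SMAD2 and SMAD3 for TGF-beta and activins, and SMAD1, SMAD5 and SMAD9 for BMPs, and these enter the nucleus with the common partner SMAD4. In the heart the pathway is known for its role in scar formation by fibroblasts, in endothelial cell identity and in valve and chamber development. TGF-beta is secreted in a latent complex with LTBP proteins that ties it to the matrix, and the ID genes are classic transcriptional targets of BMP signalling.

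Library depth ran between 10523709 and 15359296 gene counts. Levels are counts per 1000000 gene counts (CPM), and single genes are ranked and put in ratio only as CPM per kilobase of annotated exon, while sums in CPM and shares of them count reads. A count of 0 allows a true level of up to 3 counts, or 0.195 CPM in the deepest and 0.285 CPM in the shallowest library. Intervals and this limit cover counting error only. Sex-linked transcripts set libraries 2 and 3 against their label: Xist had 1897 and 1806 counts there, against 5 and 19 in libraries 1 and 4, and Ddx3y had 0 and 1 counts against 341 and 437. The spread of Bmp6, Id3, Id1, Ltbp4 and Smad3 is therefore given over all 4 libraries and in libraries 1 and 4 alone. All 5 cardiomyocyte markers were present, at a summed 76149 to 86793 CPM, as were markers of endothelial cells, fibroblasts, smooth muscle, pericytes and macrophages. Endothelial markers summed to 1119 to 1135 CPM and fibroblast markers to 829 to 954 CPM, with all 7 of 7 at 1 CPM or more in both lists. Smooth muscle and pericyte markers summed to 804 to 898 CPM, again with all 7 at 1 CPM or more, and 6 measured macrophage markers to 206 to 234 CPM. Epicardial markers were low, with 1 of 5 at 1 CPM or more and a sum of 4.72 to 6.47 CPM. Nothing in the labels says that each library came from its own mouse, so a p-value here covers spread that could be technical.

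Most of the pathway was present in the ventricle, and 2 genes that tether or present TGF-beta stood above the rest. In all, 35 of 46 members (76.1%) reached a mean of 1 CPM, against 52.8% of all genes counted, and 1 member, Grem1, had no counts at all. The 46 together made up 1968 ± 82.3 CPM (SD, n = 4). Ltbp4, a latent TGF-beta binding protein of elastic matrix, gave 33.6% of that sum, and Eng, the endothelial co-receptor endoglin, gave 15.5%. Per kilobase, the median over the 35 members at 1 CPM or more was 5.34 CPM, against 3.62 CPM over the 12288 such genes with a known length. Per kilobase, latent binding proteins summed to 119 ± 11.1, co-receptors to 90.5 ± 3.59 and TGF-beta ligands to 15.8 ± 0.2999 CPM (SD, n = 4). By reads, the 4 latent binding proteins summed to 827 ± 70.3 CPM and the 2 co-receptors to 404 ± 14.7 CPM, while the 3 TGF-beta ligands summed to 67.9 ± 1.32 CPM (SD, n = 4). The 6 BMP ligands summed to 41.6, 29.1, 40.005 and 38.1 CPM in libraries 1 to 4, lowest in library 2, and the 4 ID genes to 70.3, 65.9, 46.1 and 57.2 CPM, lowest in library 3. In bulk tissue, fewer cells of a type and less RNA per cell cannot be told apart.

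**Figure D1:**
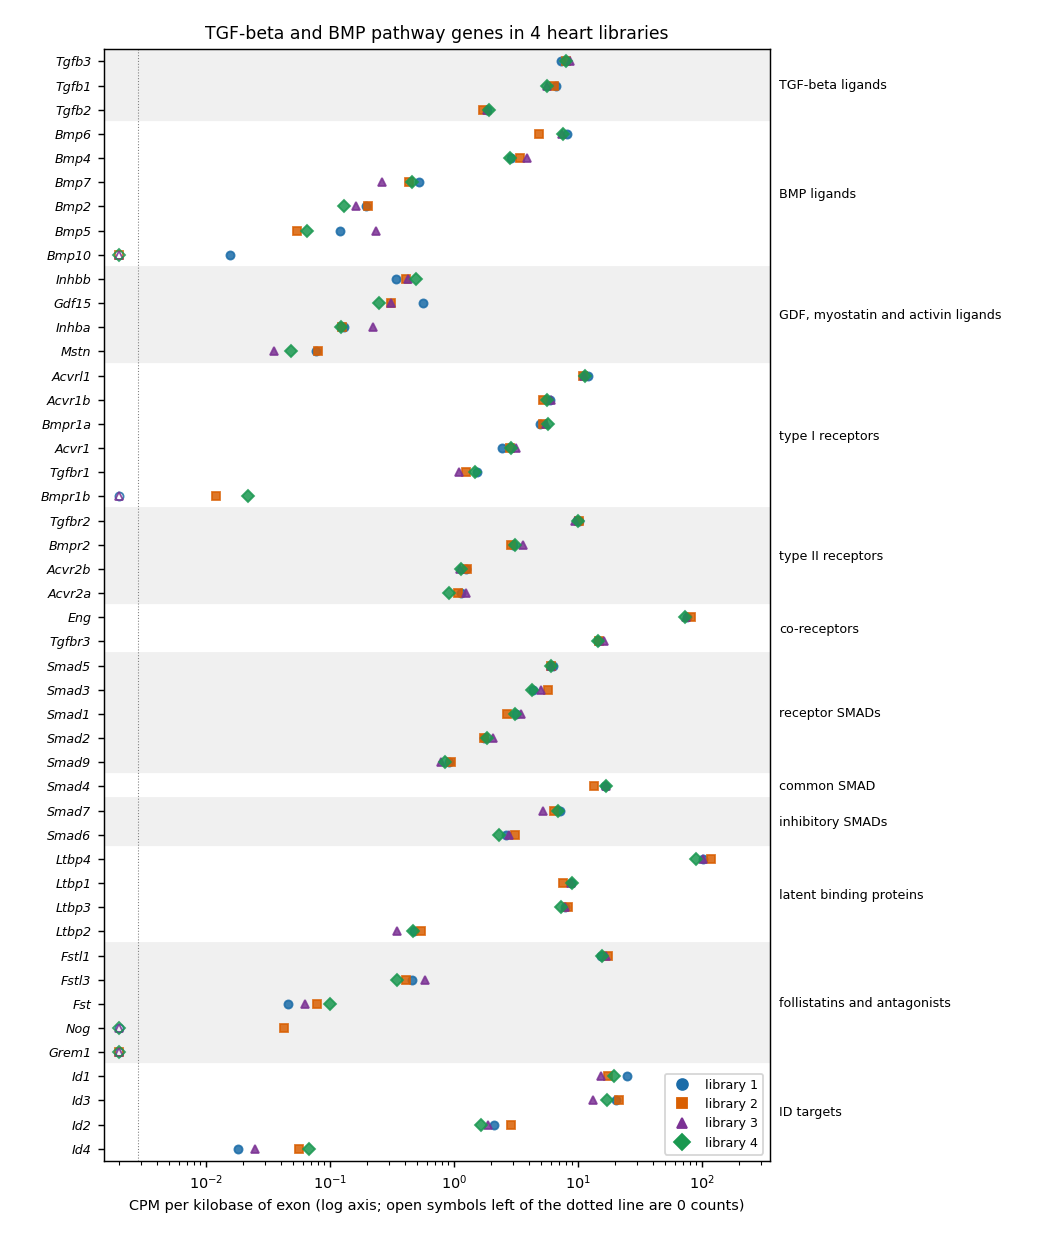
Level of each of the 46 genes in each library, as CPM per kilobase of exon on a log axis, grouped by role and ordered by mean within a role, with 1 symbol per library; open symbols at the left edge mark libraries with no counts. Ltbp4 and Eng stand to the right of all others, at means of 102 and 75.5 CPM per kilobase, while Bmp10, Bmpr1b, Nog and Grem1 lie at or near 0.

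The promoters of 4 members are shown because these genes mark the ends of what the counts of the members hold. Eng was the highest co-receptor among the members, and Grem1 had no counts. Id3 was the ID gene with the largest variance ratio (spread over that of genes of like abundance) among those tested. Bmp6 was the tested ligand with the largest one. Each runs from 250 bases before to 50 bases after the RefSeq start on GRCm38.p6, on the gene's own strand. Capitals mark CAGAC on either strand (GTCTG on the other), the short site contacted by SMAD3 and SMAD4, and GGCGCC, a palindrome bound by SMADs of the BMP branch; the motifs did not overlap in these 4 sequences.
Eng, chr2:32646345-32646644, plus strand: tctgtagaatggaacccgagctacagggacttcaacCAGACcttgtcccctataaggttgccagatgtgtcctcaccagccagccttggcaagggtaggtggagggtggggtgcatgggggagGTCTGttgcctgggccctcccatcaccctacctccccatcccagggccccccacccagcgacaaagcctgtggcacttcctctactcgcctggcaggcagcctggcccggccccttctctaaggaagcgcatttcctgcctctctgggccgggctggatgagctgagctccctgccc
Id3, chr4:136143572-136143871, plus strand: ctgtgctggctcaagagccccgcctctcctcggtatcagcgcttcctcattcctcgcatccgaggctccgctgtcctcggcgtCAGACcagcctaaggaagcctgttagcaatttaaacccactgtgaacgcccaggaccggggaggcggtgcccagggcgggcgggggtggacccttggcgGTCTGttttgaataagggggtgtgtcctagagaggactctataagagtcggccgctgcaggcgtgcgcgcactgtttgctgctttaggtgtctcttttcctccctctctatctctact
Bmp6, chr13:38345466-38345765, plus strand: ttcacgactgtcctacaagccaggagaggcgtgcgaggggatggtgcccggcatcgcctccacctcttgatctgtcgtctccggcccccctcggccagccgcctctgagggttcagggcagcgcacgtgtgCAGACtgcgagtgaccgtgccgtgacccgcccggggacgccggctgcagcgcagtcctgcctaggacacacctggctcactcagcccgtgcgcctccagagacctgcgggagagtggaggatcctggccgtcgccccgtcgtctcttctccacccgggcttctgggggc
Grem1, chr2:113758599-113758898, minus strand: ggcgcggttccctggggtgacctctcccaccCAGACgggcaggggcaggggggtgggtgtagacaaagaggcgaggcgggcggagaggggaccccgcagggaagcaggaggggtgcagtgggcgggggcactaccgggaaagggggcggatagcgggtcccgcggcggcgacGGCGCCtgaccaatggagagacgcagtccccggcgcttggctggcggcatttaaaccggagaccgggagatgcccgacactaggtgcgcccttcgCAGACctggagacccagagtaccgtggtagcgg
The Eng window held CAGAC at 214 and GTCTG at 127 bases before the start, and the Id3 window held them at 167 and 68 bases before it. Of 44 promoters listed for 35 of the members, 47.7% held CAGAC, against 49.6% of all 32851 promoters of this length in the table. GGCGCC stood in 27.3% of the members' promoters and in 11.9% of all. Members' promoters were also richer in G and C, with a median of 64.3% against 52.7%, taking the median over a gene's promoters where it has several and single promoters for the table, so the shares of a motif made of G and C are not like for like. No promoter was listed for Tgfb3, Bmp2, Bmp7, Acvrl1, Tgfbr3, Smad2, Smad4, Smad7, Fst, Nog and Id1. A match is a string of letters in a window and does not show that a factor binds there.

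Among the TGF-beta ligands, Tgfb1 and Tgfb3 were close to each other and Tgfb2 lay below both. Tgfb1, the form best known from fibrosis, lies on chromosome 7 at 25687002 to 25705077. Its level was 33.2, 32.3, 28.03 and 28.3 CPM in libraries 1 to 4. Tgfb3 had 24.6, 27.2, 28.9 and 26.9 CPM and Tgfb2 10.6, 9.84, 10.6 and 11.1 CPM. Per kilobase, Tgfb1 averaged 6.04 ± 0.532, Tgfb3 7.95 ± 0.527 and Tgfb2 1.82 ± 0.0921 CPM (SD, n = 4). The ratio of Tgfb1 to Tgfb2 within a library was 3.30-fold and that of Tgfb3 to Tgfb2 4.35-fold, with the first gene higher in 4 of 4 libraries in both. The order of Tgfb1 and Tgfb3 rested on the length used: Tgfb1 was lower per kilobase of exon in 4 of 4 libraries (log2 ratio -0.40), but higher with the longest transcript as the length (0.57) and on counts alone (0.18). Antisense genes cover 12.4% of the exon bases of Tgfb3, and since strand was not kept, reads from either strand cannot be told apart there.

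Bmp6 and Bmp4 accounted for nearly all BMP ligand RNA. Bmp6, in liver known as a regulator of iron, had 31.8, 18.8, 28.7 and 29.2 CPM in libraries 1 to 4, and Bmp4 had 6.45, 7.62, 8.74 and 6.38 CPM. Bmp6 was 2.11-fold above Bmp4 per kilobase, ranging from 1.42-fold in library 2 to 2.83-fold in library 1. Bmp7 had 11 to 30 counts per library (1.67 ± 0.442 CPM, SD, n = 4), Bmp2 6 to 10 counts and Bmp5 3 to 10. Antisense exons cover 46.7% of the exon bases of Bmp5, so its few counts are uncertain. Bmp10, which the right atrium of the adult heart makes, had 1 count in library 1 and none elsewhere. Of the other atrial markers, sarcolipin (Sln) had 1, 3, 0 and 2 counts and Myl7, a myosin light chain, had 1, 7, 3 and 2. Myl4, another atrial light chain, had more, with 47, 46, 29 and 37 counts. The natriuretic peptide Nppa was at 131 to 151 CPM. The part of tissue sampling in the level of Bmp10 was not tested.

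The 4 other ligands among the members, growth and differentiation factors and activin chains, were low. Inhbb, the beta B chain of activins, averaged 1.77 ± 0.258 CPM (SD, n = 4) and alone among these 4 ligands reached 1 CPM. Inhba, the beta A chain, had 12, 11, 15 and 12 counts, and Gdf15, a hormone released under tissue stress, had 15, 8, 6 and 7 counts. Mstn, myostatin, the brake on skeletal muscle growth, had 3, 3, 1 and 2 counts. Over all 4 libraries its level was between 0.0759 and 0.315 CPM by exact Poisson limits of 95%.

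Receptors differed widely in level, and among the members the endothelial co-receptor Eng led. Eng had 304, 327, 298 and 294 CPM in libraries 1 to 4, a co-receptor mutated in hereditary haemorrhagic telangiectasia. Tgfbr3, betaglycan, the co-receptor that presents TGF-beta2, had 94.6, 96.3, 106 and 94.9 CPM, so that Eng stood 5.05-fold above it per kilobase. Among type I receptors, Acvrl1 (ALK1), the endothelial receptor for BMP9 and BMP10, was highest with 50.9, 47.0, 47.7 and 48.7 CPM. Tgfbr1 (ALK5), the main type I receptor for TGF-beta, had 9.92, 8.19, 7.13 and 9.70 CPM, and Acvrl1 exceeded it by 8.56-fold per kilobase (log2 ratio 3.10 ± 0.188, SD, n = 4), in 4 of 4 libraries. Eng and Acvrl1 had coefficients of variation of 4.87 and 3.54%. The summed endothelial markers lay between 1119 and 1135 CPM, although single markers moved in opposite ways: Kdr was highest in library 3, at 269 CPM, and Tie1 lowest there, at 114 CPM. The part of endothelial cell number in these levels was not tested.

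Of the BMP type I receptors Bmpr1a (ALK3) and Bmpr1b (ALK6), the ventricle held Bmpr1a, with hardly any Bmpr1b. Bmpr1a had 31.4, 32.9, 34.8 and 36.5 CPM, and Bmpr1b had 0, 1, 0 and 2 counts. Summed over libraries, the ratio of the first to the second per kilobase was 575, with counting limits of 95% from 196 to 2790. Acvr1b (ALK4), the activin receptor, averaged 25.3 ± 1.72 CPM and Acvr1 (ALK2), a BMP receptor, 13.7 ± 1.503 CPM. In single libraries Acvr1b had 26.4, 23.1, 26.8 and 24.7 CPM and Acvr1 11.7, 13.7, 15.3 and 13.9 CPM, so Acvr1 was highest in library 3 and lowest in library 1. Per kilobase the order of type I receptors was Acvrl1, Acvr1b, Bmpr1a, Acvr1, Tgfbr1 and Bmpr1b. Neighbours in it kept their order in 4 of 4 libraries except Acvr1b and Bmpr1a, at 5.72 and 5.34 CPM per kilobase, whose ranges overlapped.

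Tgfbr2, the receptor that binds TGF-beta first, was the most abundant type II receptor. It had 82.7, 83.3, 77.1 and 81.8 CPM and stood 7.45-fold above its partner Tgfbr1 per kilobase, between 6.63-fold and 8.58-fold in single libraries. Bmpr2, the BMP type II receptor linked to pulmonary arterial hypertension, had 53.8, 51.8, 65.1 and 56.1 CPM, but its exons span 18.0 kilobases, so its level per kilobase was 3.15 ± 0.326 CPM. The activin receptors Acvr2a and Acvr2b were lower and alike, at 1.09 ± 0.145 and 1.19 ± 0.0718 CPM per kilobase (SD, n = 4). Acvr2a was the lower in 3 of 4 libraries, and the log2 ratio of -0.13 ± 0.218 was smaller than its spread (exact sign-flip permutation p = 0.375).

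SMADs of both branches were expressed, each branch led by 1 member. Smad5 had 46.5, 44.8, 45.2 and 44.8 CPM, with a coefficient of variation of 1.75%, less than the 4.03% that counting alone would give on average. Smad1 had 19.7, 16.6, 21.5 and 19.5 CPM and Smad9, the least abundant receptor SMAD, 4.86, 5.03, 4.18 and 4.56 CPM. Smad1 stood at 0.504 times Smad5 per kilobase and Smad9 at 0.143 times, both lower in 4 of 4 libraries. In the TGF-beta and activin branch, Smad3 had 23.8, 31.8, 27.7 and 23.3 CPM and Smad2 15.3, 15.4, 18.1 and 16.1 CPM, Smad3 being 2.59-fold higher per kilobase. Summed per kilobase, Smad1, Smad5 and Smad9 came to 10.1 ± 0.324 CPM and Smad2 with Smad3 to 6.65 ± 0.738 CPM (SD, n = 4), a ratio of 1.71, 1.28, 1.46 and 1.66 in libraries 1 to 4.

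Smad4, the partner of both branches, had 61.5, 50.2, 62.3 and 62.8 CPM and exceeded Smad5 by 2.60-fold per kilobase. Library 2 was the low one for Smad4, and the other 3 lay close together. The inhibitory SMADs, feedback targets that block receptors and SMADs, were led by Smad7, with 32.3, 28.8, 23.8 and 31.1 CPM, 2.37-fold above Smad6 per kilobase. Smad6, which acts mainly on the BMP branch, had 8.40, 9.91, 8.93 and 7.36 CPM. The summed level of both per kilobase was 0.546 ± 0.0583 times that of the 5 receptor SMADs (SD, n = 4).

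Summed, latent binding proteins had more RNA than the TGF-beta ligands, and Ltbp4 made up most of it, at 102 of 119 CPM per kilobase. Ltbp1 (8.50 CPM per kilobase) and Ltbp3 (7.78) were near Tgfb3 (7.95), and Ltbp2 (0.459) was below each TGF-beta ligand. Ltbp4, on chromosome 7 at 27305136 to 27337692, was counted at 651, 759, 655 and 582 CPM and ranked above 97.4% of genes at 1 CPM or more per kilobase. It exceeded Ltbp1, the LTBP that fibroblasts lay down with fibronectin, by 12.0-fold per kilobase (log2 ratio 3.59 ± 0.266, SD, n = 4). Ltbp1 had 93.6, 80.5, 93.98 and 95.5 CPM and Ltbp3 70.6, 75.0, 70.9 and 65.7 CPM. Ltbp3 was the lower in 3 of 4 libraries, and their log2 ratio of -0.13 ± 0.186 was within its spread (exact sign-flip permutation p = 0.25). Ltbp2, a family member that does not bind latent TGF-beta, had 3.89, 4.45, 2.85 and 3.84 CPM, 0.054 times Ltbp1 per kilobase. Ltbp4 was highest in library 2 and lowest in library 4. Summed fibroblast markers were also highest in library 2, at 954 CPM, but lowest in library 3, at 829 CPM. Single markers differed, Col3a1 being highest in library 2, at 325 CPM, and Dcn lowest there, at 180 CPM. Their part in the level of Ltbp4 was not tested.

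Of the 5 follistatins, noggin and gremlin genes, Fstl1 was the abundant member. Fstl1, a follistatin-like glycoprotein secreted by heart and muscle, had 75.6, 85.6, 81.7 and 76.1 CPM. Fst, follistatin, which neutralises activins and myostatin, had 3, 5, 3 and 7 counts, and Fstl3 13 to 16 counts per library. The ratio of Fstl1 to Fst per kilobase was 224 on summed counts, with counting limits of 95% from 141 to 378. The BMP antagonists noggin and gremlin stood at or under the limit of detection at this depth: Nog had 1 count in library 2, and Grem1 had 0 counts in all libraries. A 0 in a single library allows up to 0.195 to 0.285 CPM. Over all 4 libraries the upper limit for Grem1 was 0.0680 CPM by exact Poisson limits of 95%. Exons of an antisense gene cover 47.3% of the exon bases of Fstl3, so its level is uncertain.

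Id1 and Id3 were the leading ID genes, Id2 was lower and Id4 barely detected. ID proteins are helix-loop-helix factors without a DNA-binding region that hold back partners needed for differentiation. Id1, on chromosome 2 at 152736251 to 152737410, stood at 28.9, 20.3, 17.9 and 22.5 CPM in libraries 1 to 4. Id3, on chromosome 4 at 136143497 to 136145755 and with its promoter printed above, stood at 36.3, 38.4, 23.6 and 30.5 CPM. Both were lowest in library 3, but library 1 was highest for Id1 and library 2 for Id3. Per kilobase they were among the 4 highest members, at 19.3 ± 4.07 and 18.0 ± 3.71 CPM (SD, n = 4). Id3 was the lower of the pair in 3 of 4 libraries (log2 ratio -0.10 ± 0.269, exact sign-flip permutation p = 0.5), an order that turned round on counts alone (0.52), in libraries 2 and 3 alone (0.033) or with the longest transcript as length (0.38). Id2 had 5.07, 7.04, 4.56 and 4.04 CPM, highest in library 2, and was 0.110 times Id1 per kilobase. Id4 had 1, 3, 1 and 4 counts.

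**Figure D2:**
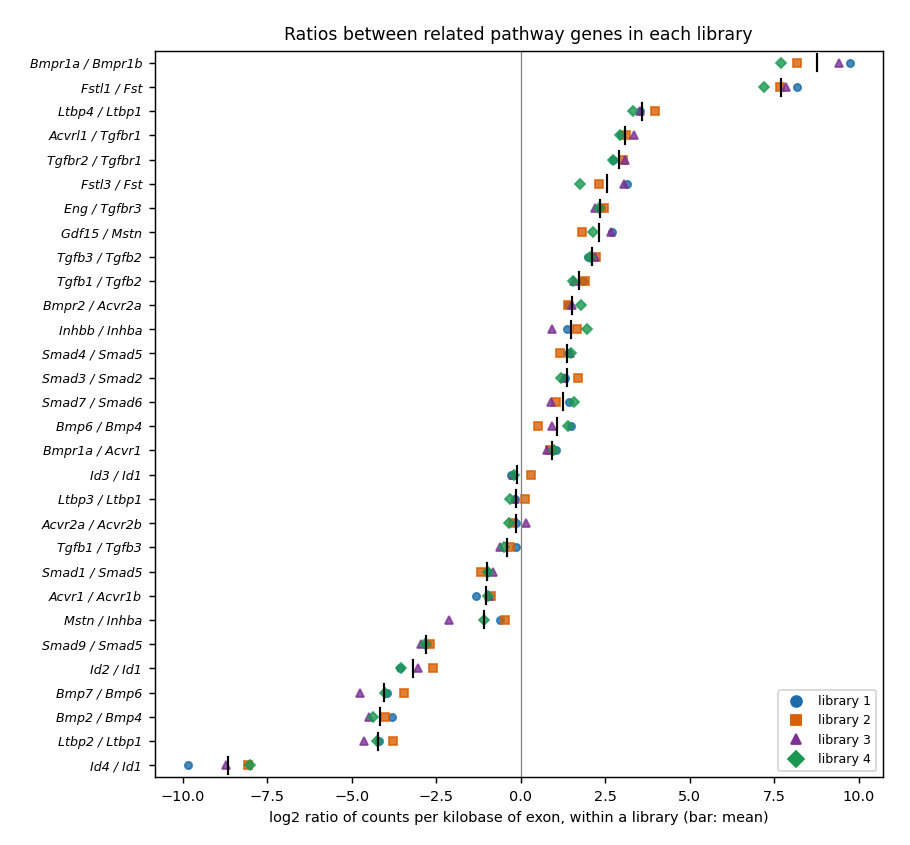
Log2 ratio of counts per kilobase of exon between 2 related genes within each library, 1 row per pair and 1 symbol per library, with a bar at the mean of 4 libraries. The 27 pairs away from 0 keep all 4 libraries on one side, and Id3 to Id1, Ltbp3 to Ltbp1 and Acvr2a to Acvr2b straddle it.

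The pairs were tested within libraries, where scaling cancels. In all, 30 pairs were compared, of which 17 had the first gene higher and 10 had it lower in 4 of 4 libraries, and 3 were mixed. The exact permutation test, which flips the signs of the 4 log2 ratios and is two-sided, cannot go below 0.125, the p of each of those 27 pairs (0.139 after Benjamini-Hochberg adjustment over 30), so no pair could pass 0.05. The ratios rest on gene lengths from the annotation, which count every annotated exon.

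No member was called more variable between libraries than genes of like abundance. The test set each gene's quasi-dispersion over the fitted trend, here called the variance ratio, against an F distribution in edgeR's quasi-likelihood fit over 12360 genes, with a Benjamini-Hochberg adjusted p under 0.05 as the call. It called 0 of 35 members tested, against 49 of all genes (0.396%). At an unadjusted p under 0.05 it had 3 of 35 members (8.57%), Bmp6, Id3 and Id1, against 5.96% of all genes. Limma called 0 members, against 0.405% of all genes, and DESeq2 marked 0 as dispersion outliers, against 1.04%. In edgeR the count of members was also 0 with library size alone (0.502% of all genes called), with the robust option off (0.0809%) and with no filter on low counts (1.48%). It was 0 without library 1, 2, 3 or 4 in turn, against 0.356, 0.526, 0.299 and 0.404% of all genes, and 0 in libraries 2 and 3 alone, against 0.55%. The median coefficient of variation was 10.4% for the 35 members and 9.60% for all tested genes, and the median variance ratio 1.07 and 0.853.

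**Figure D3:**
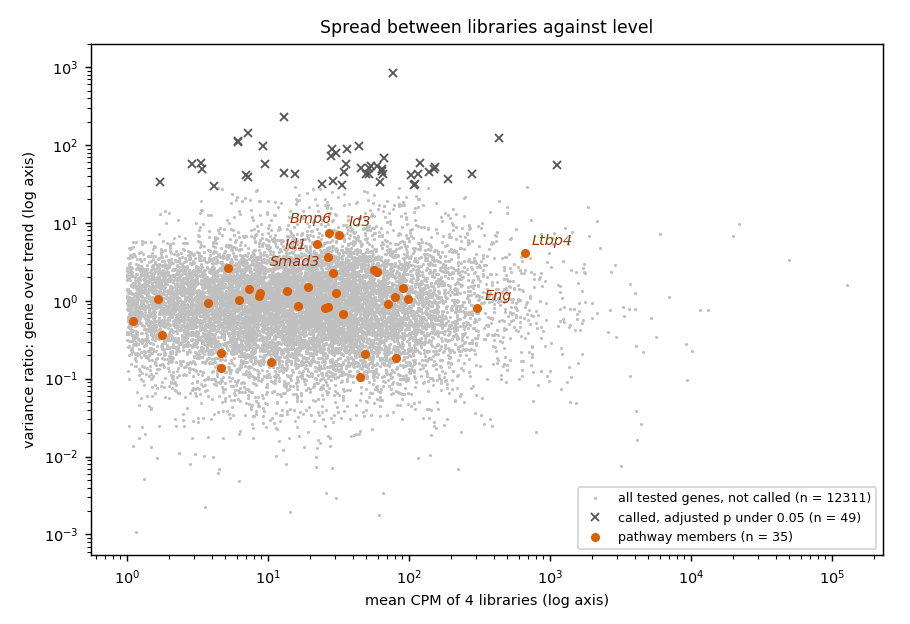
Variance ratio of each tested gene (its quasi-dispersion over the fitted trend) against its mean CPM, both on log axes; grey points are all tested genes, crosses the 49 called genes and filled circles the 35 members. Bmp6, at 7.53, is the highest member and lies under every called gene.

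Bmp6 was lowest in library 2. Its variance ratio was 7.53 (unadjusted p = 0.0125 and adjusted p = 0.507, edgeR), with 18.8 CPM in library 2 and 28.7 to 31.8 CPM in the other 3. Without library 2 its coefficient of variation was 5.56%, against 20.99% over all 4 libraries, and libraries 1 and 4 alone gave 6.06%. For Id3 the variance ratio was 6.96 (adjusted p = 0.544, edgeR) and library 3 stood lowest. Its coefficient of variation was 11.7% without library 3 and 12.3% in libraries 1 and 4, against 20.6% over all 4. Id1, with a variance ratio of 5.38 (adjusted p = 0.680, edgeR), had a coefficient of variation of 11.4% without library 1 and 17.6% in libraries 1 and 4, against 21.1% over all 4. Its value in library 4 was 22.5 CPM, nearer to library 2 than to library 1. Set against genes of like abundance in libraries 1 and 4 alone, the variance ratio was 1.62 for Bmp6, 6.23 for Id3 and 9.98 for Id1. That of Id1 was thus higher there than over all 4 libraries, although its coefficient of variation was lower.

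Ltbp4 and Smad3 came next and shared their order. Ltbp4 had a variance ratio of 4.14 (adjusted p = 0.850, edgeR) and Smad3 3.66 (adjusted p = 0.900, edgeR), and both were highest in library 2 and lowest in library 4. Their coefficients of variation were 6.54 and 9.55% without library 2, against 10.99 and 14.9% over all 4. In libraries 1 and 4 alone they were 7.94% for Ltbp4 and 1.47% for Smad3. The variance ratio there was 9.35 for Ltbp4, above its value over all 4 libraries, and 0.156 for Smad3. For Smad4 the coefficient of variation was 1.04% without library 2 and 10.2% with it. For Ltbp1 it was 1.07 and 7.70%, and for Id2 11.3 and 25.4%. Leaving out the value farthest from the rest narrows the spread of any gene, so such falls only show which library lay farthest. Smad4, Ltbp1 and Id2 had variance ratios of 2.31, 1.48 and 2.63 (unadjusted p = 0.160, 0.299 and 0.129, edgeR). At the other end, Smad5, Acvr2b, Tgfb2 and Tgfbr2 had variance ratios of 0.104 to 0.183. Of the 35 members, 10 were lowest in library 3 and 10 in library 4, against 33.4 and 16.1% of all tested genes. For 17.1% of the tested members both of the top values came from libraries 1 and 4, as they did for 23.7% of all tested genes. Both came from libraries 2 and 3 for 22.9% of the tested members, against 15.6% of all tested genes.

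**Figure D4:**
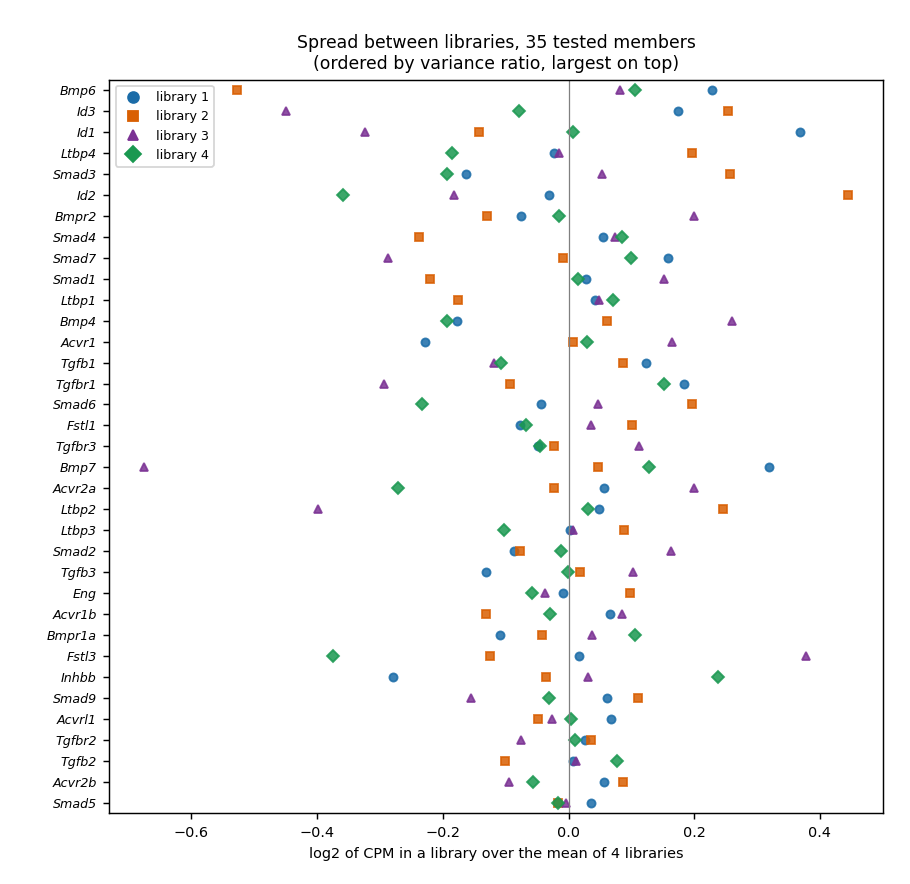
Log2 of CPM in each library over the mean of 4 libraries for the 35 tested members, ordered by variance ratio with the largest on top, 1 symbol per library. Bmp6 is lowest in library 2, Id3 is lowest in library 3 and Id1 is highest in library 1, and no library lies on the same side for all genes.

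Beyond the members, Ctgf, a matricellular growth factor and known target of TGF-beta, was called. It had 157, 50.4, 126 and 145 CPM in libraries 1 to 4 (variance ratio 58.8, adjusted p = 0.0146, edgeR). Library 2 was the low one, and the other 3 lay well above it. Without library 2 Ctgf was no longer called (adjusted p = 0.886, edgeR). In libraries 1 and 4 alone 0 of 12348 genes were called, so that setting does not bear on Ctgf. Of 98 further pathway genes in 6 lists, 97 had a row, 68 reached 1 CPM and 2 were called (2.94%, against 0.396% of all genes), both in the list of transcriptional targets. Without library 2 the count was also 2, though Ctgf was not among them. The list of targets holds 17 genes at 1 CPM or more, of which 6 had an unadjusted p under 0.05 in edgeR, and its genes respond to other signals too. Over the 6 lists 11 of 68 genes did (16.2%, against 5.96% of all genes). The lists were chosen with earlier results of these data known, so these shares describe the lists and test nothing about the pathway.

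Collagen Col3a1, the most abundant fibrillar chain in the list, had 263, 325, 213 and 260 CPM and was highest in library 2, where Ctgf was lowest; it was not called (adjusted p = 0.445, edgeR), except with no filter on low counts (0.0486). Acta2, smooth muscle actin, led the list per kilobase at 104 ± 5.95 CPM (SD, n = 4).

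Among co-receptors, Hfe2, hemojuvelin, which binds BMPs in muscle and liver, stood above endoglin per kilobase. It averaged 89.2 ± 10.8 CPM per kilobase, against 75.5 ± 3.68 CPM for Eng (SD, n = 4), though by reads it was lower (181 against 306 CPM). The order thus rests on the exon lengths used, and it was not tried with the longest transcript as length. Rgma of the same family averaged 12.7 ± 1.68 CPM per kilobase and the decoy receptor Bambi 2.71 ± 0.289 CPM (SD, n = 4). In this list 4 of 7 genes reached 1 CPM and 0 were called, and 1 had an unadjusted p under 0.05 in edgeR. Other ligands were mostly low, with 4 of 20 at 1 CPM or more and 0 called (1 at an unadjusted p under 0.05, edgeR). Inha, the alpha chain of inhibins, led them at 4.59 ± 0.226 CPM per kilobase, above Gdf10 (0.910 ± 0.353) and Gdf11 (0.627 ± 0.125).

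Transcripts for proteins that hold or release TGF-beta followed. Of 19 measured genes in that list, 16 reached 1 CPM and 0 were called (3 at an unadjusted p under 0.05 in edgeR, where all genes had 5.96%). The small proteoglycans Bgn and Dcn, both binders of TGF-beta, stood at 46.03 ± 3.72 and 40.7 ± 6.79 CPM per kilobase, and the integrin chain Itgb5 at 32.6 ± 1.76 CPM (SD, n = 4). Further BMP antagonists were more present than noggin and gremlin, with 8 of 14 genes at 1 CPM or more and 0 called (0 at an unadjusted p under 0.05, edgeR). Twsg1, a modulator of chordin, Crim1 and Nbl1 led them at 12.9 ± 1.06, 12.4 ± 0.302 and 9.11 ± 1.30 CPM per kilobase.

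All 19 SMAD regulators reached 1 CPM, and 0 were called (0 at an unadjusted p under 0.05, edgeR). Fkbp1a, the immunophilin that keeps type I receptors inactive and also sits on the calcium release channel, was highest at 34.9 ± 0.443 CPM per kilobase. Hipk2, a nuclear kinase, and Ski, a repressor of SMAD transcription, followed at 22.0 ± 1.84 and 20.9 ± 1.49 CPM (SD, n = 4). Fkbp1a and Hipk2 serve other pathways as well, so their levels are not specific to this one.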

How the data were processed

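Each library has 1 deposited file of whole-number read counts for each gene, which the authors did not normalize. Per the submitters' processing notes the genome build was mm10 and the tools included TopHat2 2.0.10 and HTSeq. The gene models and the counting mode were not given in any of the sources used here. Libraries were single-end and did not keep strand, per the labels' protocols. Rows that name no gene held 9.16 ± 0.145% of listed reads (SD, n = 4) and were left out; alignments that were not unique made up 8.33% of listed reads. CPM used each library's gene total. Exon lengths and positions came from GENCODE M21 (GRCm38), to which 98.4% of genes matched. Spread was tested with edgeR 4.0.16 in R 4.3.3: TMM factors (0.983 to 1.02), an intercept, a robust prior, genes with a mean of 1 CPM or more, variance ratio on 3 residual and 7.28 prior degrees of freedom. Pair ratios added 0.5 to each count; 1 of 31 pairs, with both genes at 3 counts or fewer, was left out. Alternatives were limma 3.58.1, DESeq2 1.42.0, other scaling, filters, lengths and subsets of libraries. Named genes were all 46 members, and from each further pathway list the 3 highest per kilobase and any gene called, except 1 that is not reported here; marker genes were named after their values were seen. Members and lists were chosen with earlier results of these data known.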

Additional observations from a re-analysis of the deposited data

Results flagged for a closer look

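Of 87 values checked (46 member levels, 30 pair ratios and 11 sums over roles), 6 had 1 library farther from the other 3 than Dixon's 95% critical value allows, with the gap given as a share of the whole range. Chance flags about 1 in 20 such groups. Smad4 was low in library 2, with 50.2 CPM there and 61.5, 62.3 and 62.8 CPM in libraries 1, 3 and 4, a gap of 0.898 of the range. Ltbp1 was low in the same library, with 80.5 CPM beside 93.6, 93.98 and 95.5 CPM (0.873). Tgfbr3 was high in library 3, with 106 CPM beside 94.6, 96.3 and 94.9 CPM (0.847). Inhba was also high in library 3, with 1.43 CPM on 15 counts beside 0.833, 0.790 and 0.781 CPM (0.92). In Bmp10 and Nog the gap was the whole range (1.0), because a single count stood in library 1 for Bmp10 and in library 2 for Nog and none elsewhere. None of these genes was called by edgeR's quasi-likelihood test: Smad4 had an adjusted p of 0.988, and Bmp10, Nog and Inhba, under 1 CPM, were not tested.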

How the results depend on the processing

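No paired analysis was possible because the libraries form a single group. The count of members called stayed at 0 under each alternative that was run, with 2 to 5 members at an unadjusted p under 0.05 where the tool gave one, and the smallest adjusted p of any member was 0.0735, with no filter on low counts. Over all genes the count of 49 became 258 with no filter, 10 with the robust option off, 129 as dispersion outliers of DESeq2 and 0 in libraries 1 and 4 alone; leaving out 1 library at a time gave 37 to 65. Among other pathway genes 2 were called, against 6 with no filter, 0 with the robust option off and 0 in libraries 1 and 4 alone. Members at 1 CPM or more numbered 34 to 36. The summed level of 1968 CPM was 2257 CPM with the ribosomal precursor Rn45s left out of the total, which raises all levels of a library by 1 factor. Pair ratios reversed in 6 cases. On counts with no length Tgfb1 to Tgfb3 was 0.18, Acvr2a to Acvr2b 0.40 and Id3 to Id1 0.52 (log2); with the longest transcript Tgfb1 to Tgfb3 was 0.57 and Id3 to Id1 0.38; in libraries 2 and 3 alone Id3 to Id1 was 0.033. The first 5 follow from the lengths used, and the cause of the last was not tested. Depth limits the 11 members under 1 CPM, where counting error alone spans much of the spread seen.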

Other observations

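The base composition of the members' promoters is given as a description, chosen after the values were seen and with no test. A gene with several promoters counts once, by their median. Over the 27 members at 1 CPM or more with a listed promoter, the median ratio of observed to expected CpG was 0.717, between 0.188 and 1.14. Over the 8 with a promoter and less than 1 CPM it was 0.356, between 0.165 and 0.988, and over single promoters in the table it was 0.384. The lowest single promoters, of Tgfbr1 at 0.148 and of Gdf15 at 0.0418, lie below these ranges. The ranges overlap: Grem1, with no counts, had a ratio of 0.792 and Eng, the highest receptor gene among the members, 0.202.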
